A study of Mus musculus with 2 samples.

Results

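The antioxidant and lipid peroxide defence module comprised 35 mouse genes that act on reactive oxygen species, peroxides and the reactive products of polyunsaturated lipids. Membership follows a written list of gene symbols, a rule that uses no measured value, although the list was drawn up with earlier results of these data known, and all 35 were found among the 27998 genes of the count table. They fall into 7 arms: 5 glutathione peroxidases, 8 glutathione transferases, 5 genes of glutathione supply, 4 genes of the superoxide dismutase and catalase arm, 6 peroxiredoxins, 3 genes of the thioredoxin system and 4 genes of the Nrf2 axis.

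The cells were adipocyte precursors sorted by flow cytometry from the whole subcutaneous adipose tissue of wild-type pups, aged 12 days, nursed by foster dams with a high or with a low n-6/n-3 ratio of polyunsaturated fatty acids in the milk fat. Each of the 2 conditions was 1 sample of 3000 sorted cells, and the number of pups behind a sample was not given in the sources used here. The labels describe the cells both as fresh and as cryopreserved in serum with DMSO, thawed and depleted of permeable cells. Cells were captured with the 10x Genomics 3′ V2 chemistry, in which each unique molecular identifier (UMI) stands for 1 captured transcript end.

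The deposited barcodes carry the suffix 1 or 2, called library 1 and library 2 here, and the labels do not say which suffix belongs to which milk fat condition. No comparison between the conditions was therefore made. Comparisons between precursor states were made inside each library, and the libraries served as 2 separate readings of each difference. Each suffix was taken to hold 1 sample, which the labels do not state. On that reading neither library nor condition differs between the cells compared. With 1 library per condition no test was run. Levels are CPM (counts per 1000000), a gene's UMIs over all UMIs of the summed cells, and 95% intervals (exact Poisson for levels, exact binomial for ratios) cover counting error only. A gene was counted as higher or lower when its level was 10 CPM or more in any sum entering the comparison and it differed by 1.5-fold or more in the same direction in both libraries.

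Peroxides and lipid hydroperoxides are reduced by glutathione peroxidases and peroxiredoxins, which draw on glutathione and thioredoxin as electron donors, and glutathione transferases couple glutathione to the reactive aldehydes and epoxides that oxidised lipids release. The transcription factor Nrf2 (gene Nfe2l2), held in check by Keap1, induces many of these genes through the antioxidant response element. Fat cells and their precursors handle large amounts of polyunsaturated fatty acids, the main substrate of lipid peroxidation. Within subcutaneous fat, precursors that express Dpp4 and Pi16 are known as early progenitors, those that express Icam1, Pparg and Fabp4 as committed preadipocytes, and those that express F3 and Clec11a as a further population that has been described as restraining fat cell formation.

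The core of the antioxidant response element, TGACNNNGC, was searched on both strands of 300-base promoter windows (250 bases before to 50 after the transcription start) from RefSeq on GRCm38.p6. It was present in 12.4% of 32851 windows and in at least 1 window of 14% of 27025 genes. Of the 35 members, 29 had an entry, and Hmox1, Gclc, Gsr, Prdx6, Gsta4 and Sod3 had none. The core was found in 7 of the 29, and the sequences are shown because Mgst1 is the one gene of these 7 that was among the members higher in committed cells. In each line the core is in capitals with 10 bases on either side, 5′ to 3′ on the strand of the gene. In Gstm5 and Nfe2l2 the core lay on the strand of the gene, and in the other 5 on the opposite strand. Mgst1 and Txnrd1 each had more than 1 window, and the core was found in only 1 of them. For Txnrd1, the window at the 5′ end of the gene (chr10:82833701-82834000) held no match. Distances upstream are counted from the transcription start of the matching window.
Mgst1, chr6:138140461-138140489, 56 bases upstream: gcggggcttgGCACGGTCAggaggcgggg
Gclm, chr3:122245413-122245441, 134 bases upstream: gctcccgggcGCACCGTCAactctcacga
Gstm5, chr3:107895802-107895830, 42 bases upstream: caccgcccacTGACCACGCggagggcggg
Nfe2l2, chr2:75704885-75704913, 240 bases upstream: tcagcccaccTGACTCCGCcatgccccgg
Prdx1, chr4:116685456-116685484, 133 bases upstream: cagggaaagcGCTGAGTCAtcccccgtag
Sod1, chr16:90220696-90220724, 56 bases upstream: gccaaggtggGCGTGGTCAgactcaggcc
Txnrd1, chr10:82859104-82859132, 92 bases upstream: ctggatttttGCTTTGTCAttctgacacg
The window of Mgst3, the member with the largest fold between the poles, held no match, nor did those of Sod2 and Gsto1. The 250 bases before the Mgst3 start (chr1:167393842-167394091, minus strand) are given for comparison.
Mgst3: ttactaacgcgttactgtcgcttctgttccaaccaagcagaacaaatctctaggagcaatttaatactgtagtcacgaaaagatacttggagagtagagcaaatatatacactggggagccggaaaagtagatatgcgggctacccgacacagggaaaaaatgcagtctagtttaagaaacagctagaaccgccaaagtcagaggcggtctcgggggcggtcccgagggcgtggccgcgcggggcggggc
In GENCODE M21 on GRCm38, the Mgst1 stretch overlaps 1 annotated exon of Mgst1 and the Gstm5 stretch reaches into the first Gstm5 exon. The other stretches lie outside the exons of their own gene. A match describes the letters of these windows only.

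Library 1 held 3321 barcodes and 42092816 UMIs, library 2 held 3584 barcodes and 43491307 UMIs, and 17 barcode sequences occurred in both. Each held more barcodes than the 3000 sorted cells stated for a condition. After removal of cells under 500 genes or over 10% mitochondrial UMIs, 3307 and 3578 cells remained, with a median of 12962 and 12112.5 UMIs per cell. Cells with the markers of macrophages, endothelial cells, mural cells, erythroid cells or fat cells (117 cells) and cells with too few state markers (9 cells) were set aside, which left 6759 precursors. Haemoglobin UMIs were present in 99.6% of library 1 precursors and 21.7% of library 2 precursors, and the erythroid list summed to 848 and 20.2 CPM in progenitor-pole cells. Precursors were assigned to states by marker UMIs alone, none of them from a member. A progenitor pole (2171 cells) had at most 0.2 of its progenitor and committed marker UMIs from the committed list, a committed pole (1438 cells) at least 0.7, and midway cells (1347) lay between. These poles are ranges, not types: 793 of the 4956 cells on this axis lay within 0.05 of the lower limit and 395 within 0.05 of the upper one. Further states were cells rich in F3-type markers (440 cells), in Smpd3, Daglb, Gas7 and Adm (895), in Cilp, C1qtnf3, Eln and Mfap4 (267), and cycling cells with 2 or more Mki67 or Top2a UMIs (201). The 6 precursor identity genes, among them Pdgfra and Cd34, summed to 60987 and 64209 CPM in progenitor-pole cells and 49684 and 48140.2 CPM in committed-pole cells.

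The 35 members together summed to 6084 and 6075 CPM in the progenitor pole and 6748 and 6899 CPM in the committed pole of libraries 1 and 2, which was also their highest level in any state in both libraries. The arms differed in how they stood between the poles. Glutathione peroxidases were the largest arm, at 2155 and 2197 CPM in the progenitor pole and 1878 and 1967 CPM in the committed pole. Glutathione transferases summed to 1043 and 1016 CPM in the progenitor pole and 1584 and 1537 CPM in the committed pole. Peroxiredoxins stayed at 1570.2 and 1530.2 CPM against 1561 and 1530.1 CPM. The superoxide dismutase and catalase arm stood at 510.4 and 515 CPM against 699 and 709.7 CPM, and the thioredoxin system at 608 and 622 CPM against 809 and 901 CPM. Both glutathione supply (59.5 and 58.7 CPM, then 61.6 and 65.2 CPM) and the Nrf2 axis (137 and 136 CPM, then 154 and 189 CPM) were far smaller.

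**Figure D1:**
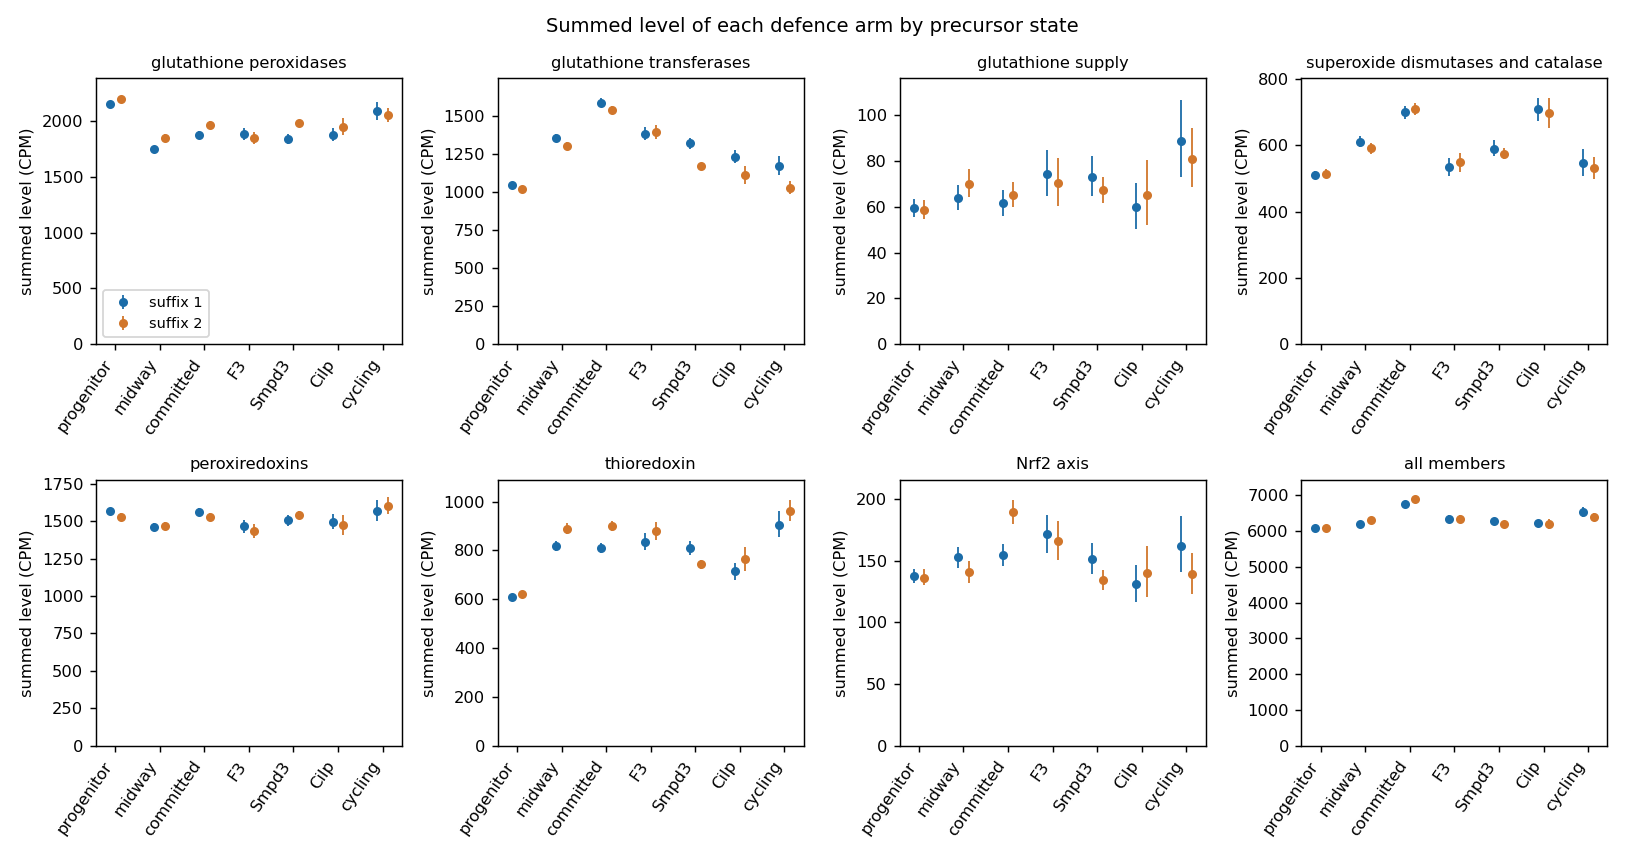
Summed level of each arm and of all 35 members (CPM, vertical axes from 0) in 7 precursor states (horizontal axes), with 1 point per library and 95% Poisson counting intervals. Transferases run from 1043 and 1016 CPM in progenitor-pole cells to 1584 and 1537 CPM in committed-pole cells, while peroxiredoxins stay between 1436 and 1603 CPM.

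Single genes spanned a wide range over all precursors. Txn1, which encodes the small protein thioredoxin, was the most abundant member at 624 and 669 CPM, followed by the secreted peroxidase Gpx3 at 604 and 679.7 CPM. These levels count transcript ends and were not divided by length. The order of Txn1 and Gpx3 was reversed between the libraries. The member with the highest level was Gpx3 among the peroxidases, Gstm1 among the transferases (515 and 459.6 CPM), Gclm in glutathione supply (29.4 and 26.9 CPM), the extracellular dismutase Sod3 in its arm (305 and 303 CPM), Prdx1 among the peroxiredoxins (509.8 and 509.6 CPM), Txn1 in the thioredoxin system, and Nfe2l2 in the Nrf2 axis (70.8 and 74.3 CPM). At the other end, 4 members stayed below 10 CPM in every precursor state: Gss, the second enzyme of glutathione synthesis (3.34 and 4.0 CPM), Slc7a11, the cystine importer (2.49 and 2.01 CPM), Nqo1, a quinone reductase and common readout of Nrf2 (1.51 and 1.45 CPM), and Gsta4, the transferase for hydroxynonenal (0.293 and 0.234 CPM). These 4 were not compared between states, which left 31 members in each comparison.

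Between the committed and the progenitor pole, 5 members were higher (Mgst3, Gsto1, Hmox1, Mgst1 and Sod2) and none was lower. Over all 7187 genes compared, 7.83% were higher and 9.66% lower. The median log2 difference was 0.15 and 0.09 over the 31 members and -0.10 and -0.11 over all genes compared. At any size, 20 members were higher and 9 lower in both libraries, where 2225 of the 7187 genes were higher and 3943 lower. Depth and a list of dissociation-stress genes differed too: the median was 13676 and 12874 UMIs per cell in the progenitor pole and 11428 and 10507 in the committed pole, and the 16 stress genes took a median of 59.7 and 54.4 UMIs per 10000 in progenitor-pole cells and 81.9 and 77.4 in committed-pole cells. Cells of both poles with 50 to 80 such UMIs per 10000, a choice made after the data were seen, gave the same 5 members and Txnrd1 as well. The fat cell list of 8 genes summed to 6.84 and 10.4 CPM in the progenitor pole and 24.2 and 43.7 CPM in the committed pole, with at most 1 gene at 0 in any of these sums. The part of those transcripts in the result was not tested.

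**Figure D2:**
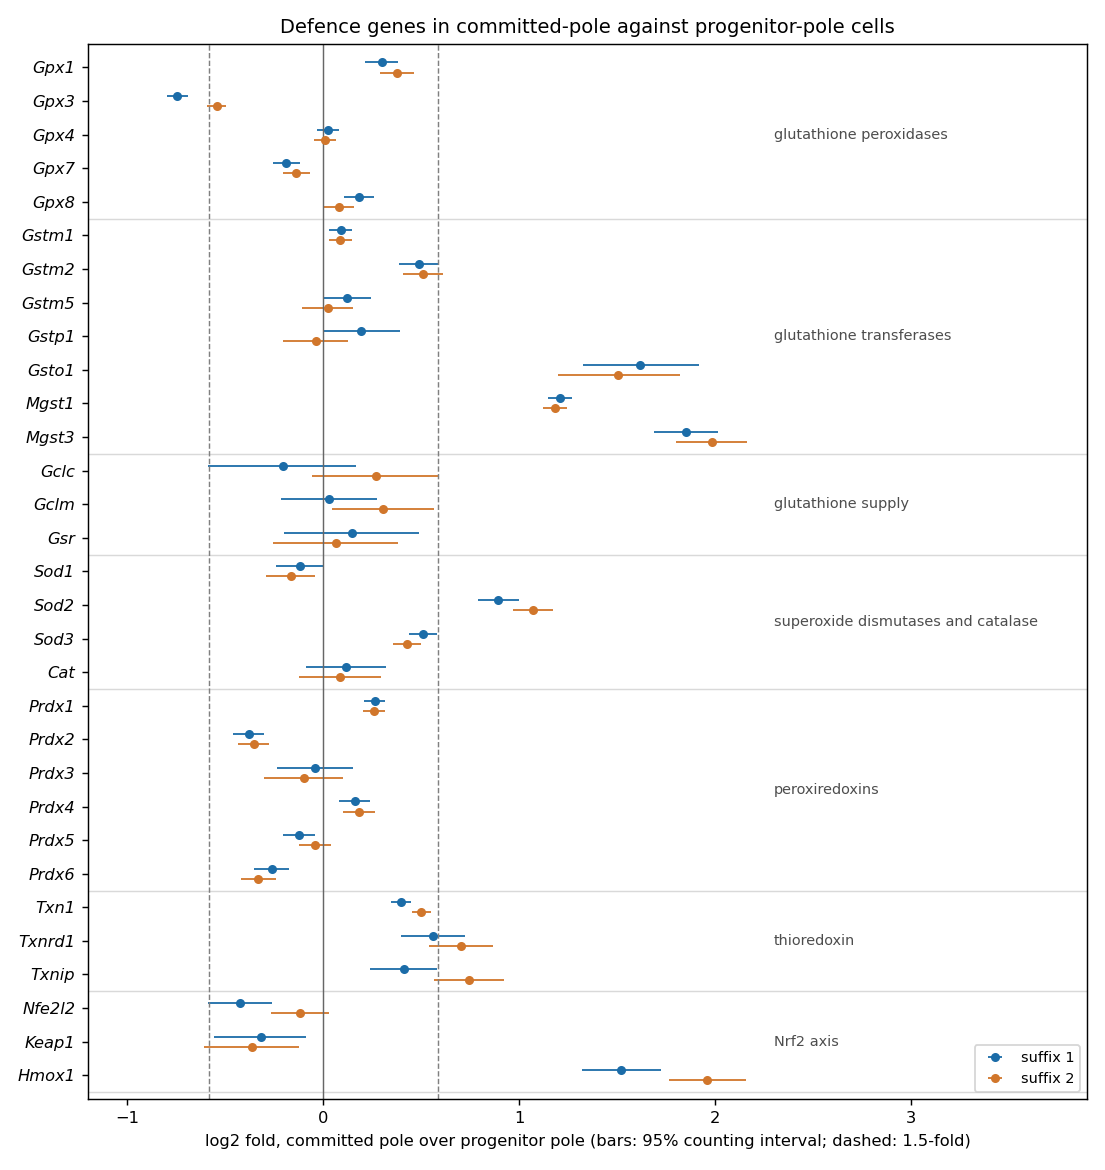
Difference of each of the 31 members above the level minimum between committed-pole and progenitor-pole cells (log2 fold, horizontal axis), by arm, with 1 point per library, 95% counting intervals and the 1.5-fold limits as dashed lines. Mgst3, Gsto1, Hmox1, Mgst1 and Sod2 lie beyond the right limit in both libraries, and Gpx3 lies at -0.74 and -0.54.

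Among the peroxidases, the largest difference lay in Gpx3, whose product is secreted and clears peroxides outside the cell. It stood at 801 and 869.6 CPM in the progenitor pole and 478 and 597 CPM in the committed pole. The log2 difference was -0.74 in library 1 (95% interval -0.80 to -0.69) and -0.54 in library 2 (-0.59 to -0.49), past 1.5-fold in library 1 and short of it in library 2. With stricter poles or with distinct markers Gpx3 counted as lower in both. Gpx4, which reduces phospholipid hydroperoxides within membranes and is the central guard against ferroptosis, was at 528 and 527 CPM in the progenitor pole and 538 and 531 CPM in the committed pole. Its log2 difference was 0.03 in library 1 (95% interval -0.03 to 0.08) and 0.01 in library 2 (-0.05 to 0.06), and neither interval reached beyond 0.08 in either direction. Gpx1, the cytosolic peroxidase, showed a log2 difference of 0.30 and 0.38, Gpx7 -0.19 and -0.14 and Gpx8 0.18 and 0.08. Gpx7 and Gpx8 act in the endoplasmic reticulum.

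The transferase arm held 3 of the 5 higher members. Mgst3, a microsomal transferase that also reduces lipid hydroperoxides, was at 32.5 and 27.1 CPM in the progenitor pole and 117 and 107 CPM in the committed pole. This was a log2 difference of 1.85 in library 1 (95% interval 1.69 to 2.01) and 1.98 in library 2 (1.80 to 2.16). Mgst1, its more abundant relative in the membranes of the endoplasmic reticulum and mitochondria, was at 256 and 268 CPM in the progenitor pole and 592 and 609 CPM in the committed pole. The log2 difference of Mgst1 was 1.21 and 1.18. Gsto1, an omega-class enzyme that removes glutathione from proteins, was scarcer, at 10.6 and 10.6 CPM against 32.6 and 30.0 CPM, with a log2 difference of 1.62 in library 1 (95% interval 1.32 to 1.92) and 1.51 in library 2 (1.20 to 1.82). Neither the 3 mu-class genes nor Gstp1 passed 1.5-fold: the log2 difference was 0.09 and 0.09 for Gstm1, 0.49 and 0.51 for Gstm2, 0.12 and 0.02 for Gstm5 and 0.20 and -0.04 for Gstp1. The mu-class genes and Gstp1 have near-identical neighbours, and the sources used here do not say how reads shared between copies were counted, so their levels are uncertain.

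In the dismutase arm, Sod2, the mitochondrial manganese enzyme, was at 102 and 104 CPM in the progenitor pole and 189.5 and 219 CPM in the committed pole. Its log2 difference was 0.89 in library 1 (95% interval 0.79 to 1.0) and 1.07 in library 2 (0.97 to 1.17). Sod3 was at 254 and 262 CPM against 361 and 353 CPM, a log2 difference of 0.51 and 0.43, short of 1.5-fold. Cytosolic Sod1 (-0.12 and -0.17) and Cat, the catalase of peroxisomes (0.12 and 0.09), differed by less than a log2 value of 0.2. Within this arm the mitochondrial form alone passed the limit in both libraries.

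No peroxiredoxin passed the limit. Prdx1, the main cytosolic form, was at 476 and 470.3 CPM in the progenitor pole and 571 and 564 CPM in the committed pole. Prdx2 (311 and 299.7 CPM against 239 and 234 CPM) and Prdx6, which reduces phospholipid hydroperoxides (231 and 236 CPM against 193 and 188 CPM), stood the other way, with log2 differences of -0.38 and -0.35 and of -0.26 and -0.33. The remaining forms gave log2 differences of -0.04 and -0.10 for mitochondrial Prdx3, 0.16 and 0.18 for Prdx4 of the secretory pathway and -0.12 and -0.04 for Prdx5, found in mitochondria, peroxisomes and cytosol.

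All 3 thioredoxin genes had higher levels in the committed pole of both libraries, without passing 1.5-fold in both. Txn1 was at 512 and 535 CPM against 675 and 758 CPM. Txnrd1, the reductase that recharges it, was at 47.8 and 47.3 CPM against 70.5 and 77.1 CPM (log2 difference 0.56 and 0.70), and passed in both libraries when sums were scaled by TMM or by DESeq2 size factors, with thinned counts and with stricter poles. Txnip, which binds and inhibits thioredoxin, was at 47.6 and 39.4 CPM against 63.4 and 66.0 CPM. Its UMIs were unevenly spread: the 5% of committed-pole cells richest in Txnip held 44.7% and 51.5% of them, against 25.2% and 28.0% for Prdx3, a gene of somewhat lower level.

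In the Nrf2 axis, Hmox1, the inducible haem oxygenase, was at 23.2 and 23.4 CPM in the progenitor pole and 66.5 and 90.8 CPM in the committed pole. Its log2 difference was 1.52 in library 1 (95% interval 1.32 to 1.72) and 1.96 in library 2 (1.76 to 2.16). Nfe2l2 itself was at 77.0 and 77.0 CPM against 57.4 and 71.0 CPM, and Keap1 at 35.8 and 34.0 CPM against 28.7 and 26.4 CPM, neither past the limit. Hmox1 is abundant in macrophages, and macrophage-marked cells held 646 and 456 CPM. The 12-gene macrophage list summed to 48.0 and 30.1 CPM in the progenitor pole and 48.2 and 31.1 CPM in the committed pole. The part of macrophage transcripts in the Hmox1 difference was not tested. Within the stress window above, the Hmox1 log2 difference was 1.80 and 2.05. The top 5% of committed-pole cells held 44.2% and 38.1% of its UMIs. Glutathione supply showed no member past the limit: Gclc and Gclm, the catalytic and regulatory parts of the first enzyme of glutathione synthesis, gave -0.21 and 0.27 and 0.03 and 0.31, and the reductase Gsr 0.15 and 0.06.

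Along the axis itself the members followed different courses. Cells were placed in 10 bins by the committed share of their marker UMIs, each bin holding 70 to 783 cells of a library. Mgst1 went from 264 and 246 CPM in the first bin to 623 and 647 CPM in the last in libraries 1 and 2, and Sod2 from 95.5 and 102 CPM to 202 and 234 CPM. Hmox1 went from 21.3 and 18.5 CPM to 106 and 133 CPM. Gpx3 was lowest in the middle: it was at 818 and 928 CPM in the first bin, 354 and 442 CPM in the fifth and 488 and 688 CPM in the last. Txn1 and Gstm1 had the opposite shape, each highest between the ends. For Txn1 the first, sixth and last bins held 497 and 507 CPM, 699 and 857 CPM and 625 and 671 CPM. Gstm1 stood at 479.8 and 400.2 CPM, 602 and 565 CPM and 422 and 375 CPM in the same bins. Gpx4 stayed between 486 and 556 CPM in all 20 sums. The median depth of the bins was 13482 and 13084 UMIs per cell in the first and 10744.5 and 9660 in the last.

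**Figure D3:**
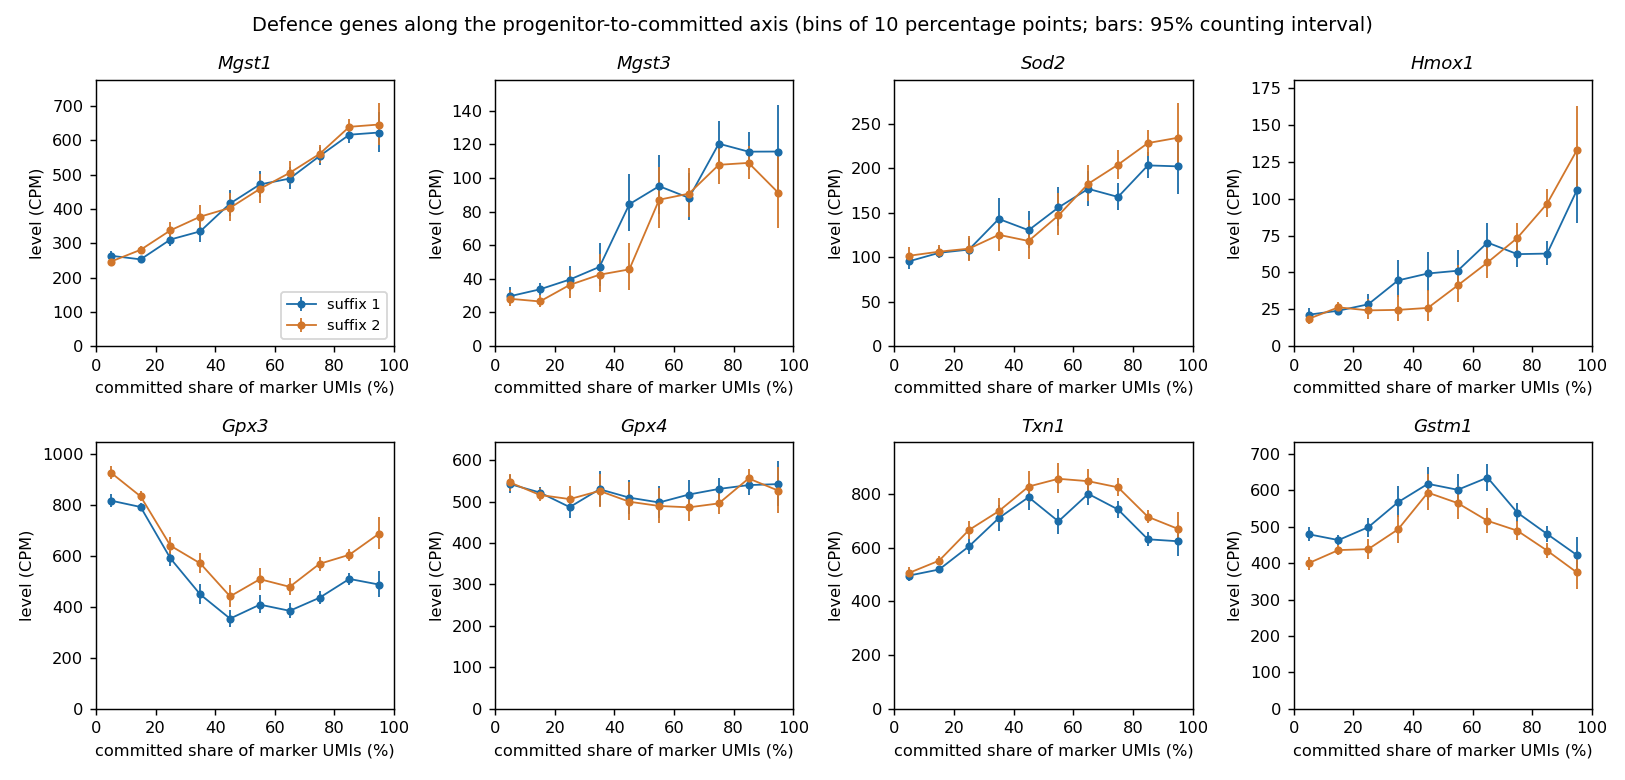
Level of 8 members (CPM, vertical axes from 0) against the committed share of marker UMIs (percent, 10 bins), with 1 line per library and 95% counting intervals. Mgst1 and Sod2 end the axis above where they start, Gpx3 has its lowest point at 354 and 442 CPM in the fifth bin, and Gpx4 stays between 486 and 556 CPM.

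In F3-type cells, set against the same progenitor pole, 4 members were higher (Mgst3, Hmox1, Gsto1 and Mgst1), where 7.55% of all 7375 genes compared were higher. There were 2 lower (Gpx3 and Prdx6), where 5.48% of all genes were lower. The count of 2 lower among 31 members compared is near that share and is no result about the members as a set. As the committed and F3-type comparisons share the progenitor cells, their values are only set side by side. Mgst3 was at 104 and 89.9 CPM (log2 difference 1.68 and 1.73 from the progenitor pole), Hmox1 at 62.2 and 53.3 CPM (1.42 and 1.19), Gsto1 at 23.3 and 21.4 CPM (1.13 and 1.02) and Mgst1 at 415 and 414 CPM (0.69 and 0.63). Gpx3 was at 491 and 543 CPM (-0.71 and -0.68), and Prdx6 at 151 and 155 CPM (-0.61 and -0.61), its lowest or next to lowest level of any precursor state. Stress-list UMIs were higher still in F3-type cells, at a median of 93.9 and 86.8 per 10000. Within the stress window Mgst1 fell short of 1.5-fold (0.46 and 0.44), as did Gpx3 in library 2 (-0.48) and Prdx6 in library 2 (-0.41). Mgst1 also fell short with thinned counts (0.55 in library 2), stricter poles and the marker rule on thinned cells. Prdx6 fell short with TMM scaling (-0.58 in library 2), DESeq2 size factors, thinned counts, the rule on thinned cells, distinct markers and without the deepest cells.

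Set directly against the committed pole, F3-type cells had no member higher and none lower, against 3.85% and 1.95% of 7214 genes. Among the nearest were Mgst1, at 415 and 414 CPM in F3-type and 592 and 609 CPM in committed-pole cells (-0.51 and -0.56), and Sod2, at 125 and 157 CPM against 189.5 and 219 CPM (-0.60 and -0.48). Sod3 was at 269.8 and 258 CPM in F3-type cells, near its progenitor level, with a log2 difference of -0.42 and -0.45 from the committed pole. Mgst1 counted as lower with TMM or DESeq2 scaling, with stricter poles and within the stress window.

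In Smpd3-type cells no member was higher or lower than in the progenitor pole, against 0.829% and 0.337% of 7121 genes. Gpx3, at 522 and 648 CPM (-0.62 and -0.42), and Mgst3, at 55.9 and 35.7 CPM (0.78 and 0.39), passed 1.5-fold in library 1 alone. Gclm, at 36.7 and 29.6 CPM against 27.4 and 21.7 CPM, gave 0.42 and 0.45.

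Cilp-type cells had 3 members higher than the progenitor pole (Gsto1, Mgst3 and Sod3) and none lower, against 4.53% and 3.65% of 7223 genes. Sod3, which is bound to the extracellular matrix, had its highest level here, at 441 and 426 CPM against 254 and 262 CPM in the progenitor pole. Its log2 difference was 0.80 in library 1 (95% interval 0.70 to 0.90) and 0.70 in library 2 (0.57 to 0.83). Mgst3 was at 54.6 and 50.6 CPM (0.75 and 0.90). Gsto1 was at 23.6 and 16.1 CPM with 1.15 in library 1 (95% interval 0.68 to 1.60) and 0.61 in library 2 (-0.13 to 1.28), so that the interval of library 2 included 0. Within the stress window none of the 3 passed in both libraries, Sod3 giving 0.72 and 0.51. Mgst3 also fell short with thinned counts (0.50 in library 2) and stricter limits, and Gsto1 with the marker rule on thinned cells (0.45 in library 2).

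Cycling precursors, set against all other precursors, had no member higher or lower, while 10.3% of 7748 genes were higher and 1.01% lower. Prdx4, a peroxiredoxin of the secretory pathway, came closest among the higher levels, at 362 and 385 CPM in cycling and 244 and 233 CPM in other precursors. Its log2 difference was 0.57 in library 1 (95% interval 0.43 to 0.70) and 0.73 in library 2 (0.62 to 0.83). Gpx4 had its highest precursor level here, at 711 and 660.3 CPM against 523 and 519 CPM. Hmox1 was at 29.6 and 10.7 CPM against 40.3 and 41.0 CPM, where the library 2 value rests on 21 UMIs. Cycling cells were deeper, at a median of 15923 and 16024 UMIs per cell.

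Between the libraries, no member passed 1.5-fold in both poles, where 0.167% of 7179 genes were higher in library 2 and 0.139% lower. CPM were scaled by TMM for this comparison. Gstp1 came closest: it was at 39.8 CPM in library 1 and 60.1 CPM in library 2 in the progenitor pole, and at 45.4 CPM and 58.8 CPM in the committed pole. These are log2 differences of 0.59 and 0.37. In the progenitor and the committed pole, Hmox1 gave 0.00 and 0.46, Gpx3 0.11 and 0.33 and Nfe2l2 -0.01 and 0.31. Gclc, at 17.6 CPM in library 2 and 11.6 CPM in library 1 of the committed pole, gave 0.11 and 0.60. For Gpx4 the values were -0.01 and -0.01, and for Mgst1 0.06 and 0.05. Library, milk fat condition and the haemoglobin content of the libraries cannot be told apart in these values.

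**Figure D4:**
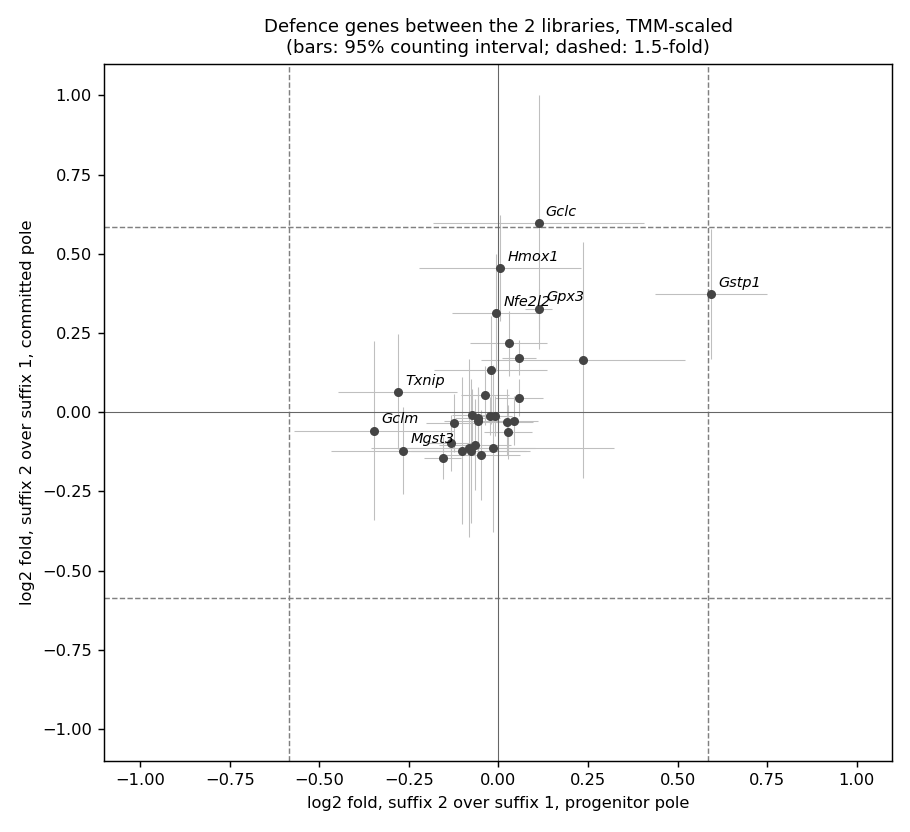
Difference of the 31 members between library 2 and library 1 (log2 fold after TMM scaling) in progenitor-pole cells (horizontal axis) and committed-pole cells (vertical axis), with 95% counting intervals and 1.5-fold limits as dashed lines. No member lies beyond the limits on both axes, and Gstp1, at 0.59 and 0.37, comes nearest.

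A wider list of oxidative defence genes (127 symbols named, 120 found, 86 above the level minimum between the poles) held 14 genes higher and 10 lower in the committed pole, where 7.83% of all genes compared were higher and 9.66% lower. The count of 10 lower among 86 is near the share over all genes and is no result about the list. The genes highest by fold included Ephx2, the soluble epoxide hydrolase that opens fatty acid epoxides, at 11 and 11 CPM in the committed and 0.864 and 1.47 CPM in the progenitor pole. Ephx2 met the minimum of 10 CPM through its committed sums alone, so its place here depends on the group where it is high. Ggt5, which cleaves glutathione and its conjugates outside the cell, was at 66.2 and 71.6 CPM against 10.2 and 10.6 CPM. Cygb, the oxygen-binding cytoglobin, was at 275 and 267 CPM against 86.4 and 76.0 CPM. Srxn1, which repairs over-oxidised peroxiredoxins, was at 131 and 177 CPM against 47.2 and 55.9 CPM, and the metallothionein Mt1 at 4819.8 and 5633 CPM against 2096 and 2084 CPM. Slc40a1 (the iron exporter ferroportin), Gstt1 and Gstt2 (theta-class transferases), Aox1 and Maff were the others of the 10 largest by mean fold. Like Ephx2, Slc40a1 was under 10 CPM in both progenitor-pole sums and met the minimum through its committed sums alone. The lower genes were Txnrd3, Sesn1, Slc1a4, Akr1b8, Aifm2, Gstk1, Aldh1a1, Msrb3 and, among the suppliers of NADPH, Pgd (27.3 and 28.4 CPM against 46.3 and 48.7 CPM) and Me1 (14.4 and 15.7 CPM against 23.9 and 24.0 CPM). All 8 NADPH supply genes of the list were compared, and 2 were lower and none higher, against the same 9.66% and 7.83% of all genes. In the F3-type comparison 9 of 82 genes of the wider list were higher and 5 lower, against 7.55% and 5.48% of all genes, so that the count of lower genes is again near the background. Cygb was at 380.3 and 383 CPM in F3-type cells. Between the libraries none of the 86 compared was higher or lower, against 0.167% and 0.139% of all genes.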

How the data were processed

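Single-cell RNA was measured in 2 samples of sorted adipocyte precursors, deposited as 1 matrix of raw UMI counts per gene and barcode. Per the submitters' processing notes, Cell Ranger (no version given), Seurat 3.0.1 and the mm10 build were used, with no role stated, and no normalization of the deposited counts was found. The files held no map from barcode suffix to sample.

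Cells with at least 500 genes and at most 10% mitochondrial UMIs were kept. States were set by marker UMIs: at least 10 axis UMIs with ratio limits of 0.2 and 0.7, at least 8 UMIs of F3-type or Smpd3-type or 40 of Cilp-type markers from 3 or more genes, and other types by 4 or 5 distinct markers or 100 haemoglobin UMIs. Counts were summed per state and library and divided by their total. TMM (edgeR 4.0.16, R 4.3.3) scaled the library comparison. edgeR and DESeq2 1.42.0 served for scaling only. Intervals used scipy 1.17.1 at 95%. Ratios against a sum of 0 used a floor of 3 counts. Doublets were not called. Leaving out the deepest 5% of cells stood in as an alternative, and thinning used 7470 UMIs per cell, which left out 375 and 314 cells. The calling step was run on simulated Poisson sums with known folds and no variation between cells or libraries beyond counting. That run checks the calculation and does not measure the error of the calls in these data. All 35 members are accounted for. Named in full are those past the limit and the most abundant of each arm, and wider-list genes by the 10 largest mean folds per direction. The member list uses no measured value in its rule, but members, lists and comparisons were chosen with earlier results of these data known, and the state limits after their marker distributions had been seen. Gene positions follow GENCODE M21 on GRCm38, and promoter windows RefSeq on GRCm38.p6. The reading of catalytic residues from protein sequences was not made. Alternatives covered scaling, level minimum, fold, thinning, state rules, cell filters, haemoglobin and stress.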

Additional observations from a re-analysis of the deposited data

Results flagged for a closer look

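Cells with markers of other types were set aside from every comparison, and some members stood higher in them than in any precursor state in both libraries. In macrophage-marked cells (21 in library 1 and 17 in library 2) Hmox1 was at 646 and 456 CPM, against at most 90.8 CPM in a precursor state. Nfe2l2 was at 181 and 219 CPM and Gpx1 at 602 and 550.4 CPM in these cells. Slc7a11, below 10 CPM in every precursor state, reached 44.0 and 118 CPM there, from 9 and 20 UMIs. In each library 1 cell held 8 of these UMIs (88.9% and 40%), so the value of library 1 rests on 1 cell and neither is a level of these cells as a group. In endothelial-marked cells (20 and 22) Gpx1 was at 399.9 and 358 CPM and Txnip, the thioredoxin inhibitor, at 127 and 226 CPM. The precursor identity genes still summed to 32944 and 29377 CPM in macrophage-marked cells, whose purity was not tested. A list of 5 mast cell or granulocyte genes summed to 0 CPM in those of library 1 and 1621.5 CPM in those of library 2. The make-up of this group therefore differed between the libraries. No group had enough samples for a search for outlying samples.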

How the results depend on the processing

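Of the 14 counts of members (7 comparisons, each direction), 134 of 168 values under alternatives stayed within 1.5 times the original count and 34 did not. Most of the 14 counts were 0, and a count of 0 was scored as kept only where it stayed 0. Raising the level minimum cannot add a call, so there a count of 0 was fixed in advance. Among the folds of single named members, 321 kept their side of 1.5-fold and 23 fell short of it. None reversed its direction. Changing the level minimum or lowering the fold limit leaves the value of a fold as it was. Agreement under those alternatives was therefore fixed in advance, and it is part of the 321. The 5 members higher in the committed pole were also called under every alternative run, except Gsto1 with a level minimum of 50 CPM, which its level does not reach. With the limit lowered to a log2 difference of 0.32, the counts became 10 higher and 2 lower in the committed pole (12.6% and 21.3% of all genes), 8 higher in F3-type cells against progenitors (12.4%) and 4 lower against the committed pole (4.93%), 2 higher and 1 lower in Smpd3-type cells (3.1% and 1.69%), 5 higher and 3 lower in Cilp-type cells (8.2% and 10%), 5 higher and 5 lower in cycling cells (19.7% and 4.71%), and 1 higher in library 2 (Gstp1, 0.975%). Gpx3 was the 1 member lower in the committed pole with stricter poles or with distinct markers. In F3-type cells against progenitors, the count of 2 lower became 1 (Gpx3) with TMM, DESeq2 size factors, thinned counts, the rule on thinned cells, distinct markers or without the deepest cells, and 0 within the stress window. Mgst1 of F3-type cells lost its call with thinned counts (0.64 and 0.55), stricter poles (0.54 and 0.64) and the rule on thinned cells (0.66 and 0.57). Against the committed pole, 1 was lower (Mgst1) with TMM, DESeq2 or the stress window, and 2 (Mgst1, Sod2) with stricter poles. Within the stress window, 1 was higher in Smpd3-type cells (Gclm), 1 higher (Txnrd1) and 1 lower (Prdx6) in Cilp-type cells, and 1 higher in cycling cells (Prdx4). Other counts of 1 were Gsr, lower in Cilp-type cells with stricter limits, and in cycling cells Nqo1 with no level minimum, Gclm with the rule on thinned cells and Prdx4 without the deepest cells (higher), and Hmox1 with TMM and Txnip with stricter limits (lower). The causes of these moves were not tested. Leaving out every cell with a haemoglobin UMI kept 12 precursors of library 1, too few for sums, so this was run in library 2 alone, where the folds of the named members kept their side of 1.5-fold except Prdx6 of F3-type cells (-0.58) and Gsto1 of Cilp-type cells (0.56). Members under 20 CPM, such as Gclc, Gsr and Gsto1, have the widest counting intervals. Differences between states were taken within each library, which pairs the states by library. No test was run on these paired differences, as there was 1 library per condition.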

Other observations

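In some arms the midway cells lay outside the range of the poles. Peroxidases summed to 1747 and 1852 CPM there, below both the progenitor pole (2155 and 2197 CPM) and the committed pole (1878 and 1967 CPM) of the same library. Gpx3 was at 465 and 546 CPM, Gpx7 at 311 and 330.0 CPM and Gpx8 at 230.1 and 234 CPM. Prdx6 was at 175 and 181 CPM, also below both poles in each library. Gstm1 was above both, at 571 and 507 CPM. The Schwann cell list stood apart in midway cells of library 2, at 355 CPM against 29.5 CPM in library 1, and the part of such cells in these levels was not tested.

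Of 83 genes of the wider list compared, Cilp-type cells had 7 higher and 3 lower than the progenitor pole, against 4.53% and 3.65% of all genes, and the count of lower genes is near that background. The collagen crosslinking enzyme Lox, which releases hydrogen peroxide, was at 415 and 395 CPM against 166 and 145 CPM, and Slc40a1, the iron exporter, at 18.1 and 19.9 CPM against 3.46 and 3.55 CPM. Slc40a1 met the level minimum through its Cilp-type sums alone. In cycling cells 4 of 83 were higher and none lower, against 10.3% and 1.01% of all genes, so that the share higher is below the background and is no result about the list. The 4 were Txndc12, a thioredoxin-like protein of the endoplasmic reticulum (83.1 and 84.0 CPM against 38.8 and 38.5 CPM), Idh2, a mitochondrial source of NADPH (199.7 and 167 CPM against 97.8 and 99.3 CPM), Glrx and Chac2. In Smpd3-type cells 1 of 82 genes was higher and none lower, against 0.829% and 0.337% of all genes. It was the hydrogen peroxide maker Nox4 (10.6 and 9.23 CPM against 6.25 and 6.02 CPM). Nox4 met the level minimum only in the Smpd3-type sum of library 1. A count of 1 is near the share over all genes and is no result about the list. Between F3-type cells and the committed pole 4 of 81 were lower and none higher (Ggt5, Srxn1, Ephx2 and Slc40a1), against 1.95% and 3.85% of all genes. Ephx2 met the level minimum there through its committed-pole sums alone, so its place depends on the group where it is high.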
